A study of Mus musculus with 38 samples.

Results

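The BCL2 family of apoptosis regulators was followed at the RNA level in the intestinal epithelium of mice before and during chemically induced colitis. The 10 members described are Bcl2, Bcl2l1, Mcl1, Bax, Bak1, Bid, Bbc3, Pmaip1, Bcl2l11 and Bad. They were taken by gene name from the 46078 genes counted in each library, all 10 were found, and all 10 passed the filter on low counts in every comparison. The study sequenced 38 libraries of isolated intestinal epithelial cells from C57BL/6 mice, 1 library per numbered animal. The animals were KO mice (Hk2∆IEC), in which a floxed Hk2 allele meets a Cre recombinase driven by the Villin promoter, or WT littermates, which are Hk2 fl/fl. The Villin promoter is active along the intestinal epithelium, and the floxed allele is shared by all 6 groups, so WT here means floxed controls. Hk2 encodes hexokinase 2, a glycolytic enzyme that can bind the mitochondrial outer membrane, and the series concerns hexokinase 2, mitochondria and cell death in colitis. Of the 6 groups, 2 were untreated and 4 received DSS. The WT groups held 4 animals on day 0, 7 on day 3 and 7 on day 7, and the KO groups held 5, 8 and 7 animals on the same days. The mice of days 3 and 7 drank 1.5% dextran sodium sulfate (DSS), which injures the colonic epithelium, and were males of 10 to 12 weeks that were housed with both genotypes together. Basal phenotyping used young mice (9 to 11 weeks) and aged mice (86 to 92 weeks), and no age is given for the single day 0 animals. Colon tissue is named in the series text, isolated epithelial cells in the sample labels.

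BCL2 family proteins decide whether the mitochondrial outer membrane is opened during intrinsic apoptosis. Bcl2, Bcl2l1 (BCL-XL) and Mcl1 encode guardians that keep it closed, Bax and Bak1 encode the effectors that form the pores, and Bid, Bbc3 (PUMA), Pmaip1 (NOXA), Bcl2l11 (BIM) and Bad encode BH3-only proteins that activate the effectors or neutralise the guardians. In the intestine, cells are shed and replaced continuously, BCL-XL and MCL1 are known to protect the epithelium, and PUMA is known as a p53-driven trigger of crypt cell death after irradiation. The proteins are also controlled by cleavage, phosphorylation, localisation and turnover, none of which RNA counts record.

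The members that passed the test between the DSS days were Bak1, Bcl2l11 and Bcl2l1, and the 250 bases before a RefSeq transcription start of each are printed here to show the start regions of the members that rose. The windows come from the RefSeq table of build GRCm38.p6 and read 5′ to 3′ on the strand of the gene. That of Bcl2l11, the more upstream of 2 listed starts, is chr2:128125788-128126037 on the plus strand, that of Bak1 is chr17:27028628-27028877 on the minus strand, and that of Bcl2l1, the most upstream of 3 listed starts, is chr2:152831729-152831978 on the minus strand. Capitals mark matches, on either strand, to any of 5 short motifs: the GC box GGGCGG, the E box CACGTG, the STAT motif TTCNNNGAA, the FOXO motif GTAAACA and the hypoxia-factor core ACGTG, which lies inside the E box.
Bcl2l11: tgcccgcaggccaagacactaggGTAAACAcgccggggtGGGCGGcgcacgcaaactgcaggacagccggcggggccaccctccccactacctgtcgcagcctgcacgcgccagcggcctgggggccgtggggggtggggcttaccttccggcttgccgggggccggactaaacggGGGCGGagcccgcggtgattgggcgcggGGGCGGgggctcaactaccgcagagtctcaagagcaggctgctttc
Bak1: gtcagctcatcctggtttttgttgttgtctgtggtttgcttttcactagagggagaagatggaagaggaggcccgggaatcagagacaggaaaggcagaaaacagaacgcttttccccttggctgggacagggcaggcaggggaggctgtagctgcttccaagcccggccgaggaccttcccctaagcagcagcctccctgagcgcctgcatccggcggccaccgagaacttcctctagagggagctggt
Bcl2l1: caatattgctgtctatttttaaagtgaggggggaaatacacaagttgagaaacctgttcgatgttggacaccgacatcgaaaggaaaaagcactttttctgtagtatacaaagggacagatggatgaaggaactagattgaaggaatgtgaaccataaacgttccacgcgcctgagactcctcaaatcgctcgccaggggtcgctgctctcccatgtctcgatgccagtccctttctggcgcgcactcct
The Bcl2l11 window held 3 GC boxes and 1 FOXO motif in a sequence of 72% G and C, whereas the window of its other listed start held 2 GC boxes and 0 FOXO motifs. The windows of Bak1 and of Bcl2l1 held no match, at 58.4% and 47.6% G and C against a median of 52.4% over all 32851 windows of the table. At least 1 GC box was present in 32.7% of all windows, a FOXO motif in 3.17%, an E box in 6.02%, the hypoxia-factor core in 16.6% and the STAT motif in 7.02%. Of the 10 members, 9 had a window and Pmaip1 had none. A GC box was found in 10 of the 15 windows of these genes, which belong to 7 of the 9 genes. A FOXO motif was found in 2 of the 15 windows, for 1 of 2 Bcl2l11 starts and for 1 of 3 Bbc3 starts. An E box was found in 2 of the 15 windows, for Bax and Bbc3, and the STAT motif in 0. A match describes letters in this stretch and is not evidence of a bound factor.

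Library depth ran from 10.5 to 60.6 M (mega) counts with a median of 43.2 M, and the lowest total was in KO day 0. The smallest level a library could show, taken as 3 counts, was 0.0495 to 0.286 counts per M total counts (CPM), below the level of every member in every library. Day 0 libraries carry another numbering prefix and held 6.25% to 13.8% of counts in mitochondrial ribosomal RNA, apart from d0_KO_32 at 45.6%. On days 3 and 7 the share was 0.352% to 3.95%. Histone genes took 0.266% to 0.413% of counts on day 0 and 0.012% to 0.0541% on days 3 and 7. Day 0 and the library prefix thus cannot be told apart. The library d0_KO_32 was the highest of KO day 0 for Bcl2l1, Bak1, Bid and Bad. It was the lowest for Bcl2, Mcl1, Pmaip1 and Bcl2l11. Hk2 was at 99.3 to 224 CPM in WT day 3 and at 70.9 to 131 CPM in 7 of 8 KO day 3 libraries. The library labelled d3_KO_345 held 440 CPM, against its genotype label, and its 14 leukocyte markers summed to 201 CPM against 61.6 to 86.8 CPM in the other KO day 3 libraries. In the day 7 groups, Hk2 was at 231 to 598 CPM in WT and at 56.6 to 198 CPM in 6 of 7 KO libraries. The library labelled d7_KO_420 held 260.5 CPM, inside the WT range and against its genotype label. Calls of members that use either library are also given without it where the call or direction differs. All 8 epithelial markers were present, summing to 8710 to 19300 CPM over all libraries. Leukocyte markers summed to 40.4 to 59.9 CPM on day 0, 50.6 to 80.2 CPM in WT day 3, 203 to 1180 CPM in WT day 7 and 170 to 1620 CPM in KO day 7. No leukocyte marker was at 0 in all libraries of a group. Stromal and endothelial markers reached at most 138 CPM on day 3 and 301 CPM on day 7, and erythroid markers reached at most 31.5 CPM on day 3 and 441 CPM in the library labelled d7_KO_420. Colon markers (3510 to 13100 CPM) exceeded small intestine markers (154 to 1220 CPM). The highest small intestine sum was that of d3_WT_381, against 198 to 341 CPM in the other WT day 3 libraries. That library also had the lowest total of WT day 3 (26.7 M) and the highest mitochondrial ribosomal share of days 3 and 7 (3.95%). It was the highest of WT day 3 for 4 of 10 members, Bax, Bak1, Bid and Bad.

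Mcl1 was the most abundant member in all 6 groups and Bcl2 or Bcl2l11 the least. Genes were compared on CPM per kilobase of the annotated exons, since a long gene collects more reads than a short one at equal abundance. In WT day 3 the length-scaled level of Mcl1 was 147 ± 17.1 CPM per kb (SD, n = 7), that of Bak1 was 43.8 ± 6.08 and that of Bax was 37.3 ± 4.93. The ranges of Bak1 and Bax overlapped there, whereas Mcl1 stood clear of both. Pmaip1 at 22.1 ± 5.22 and Bad at 18 ± 3.18 CPM per kb came next with overlapping ranges, then Bcl2l1 at 10.3 ± 0.966. Bbc3 (4.95 ± 1.22) and Bid (4.31 ± 0.646) overlapped each other, and Bcl2 (1.53 ± 0.309) overlapped Bcl2l11 (1.22 ± 0.205) at the bottom of the order. The order differed between groups mainly among neighbours whose ranges met, such as Bbc3 and Bid or Bcl2 and Bcl2l11. Summed exon lengths include untranslated and rarely used exons, which lowers the scaled level of long genes such as Bcl2 (9157 bases) and Bcl2l11 (8029 bases) against Bax (869 bases).

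**Figure D1:**
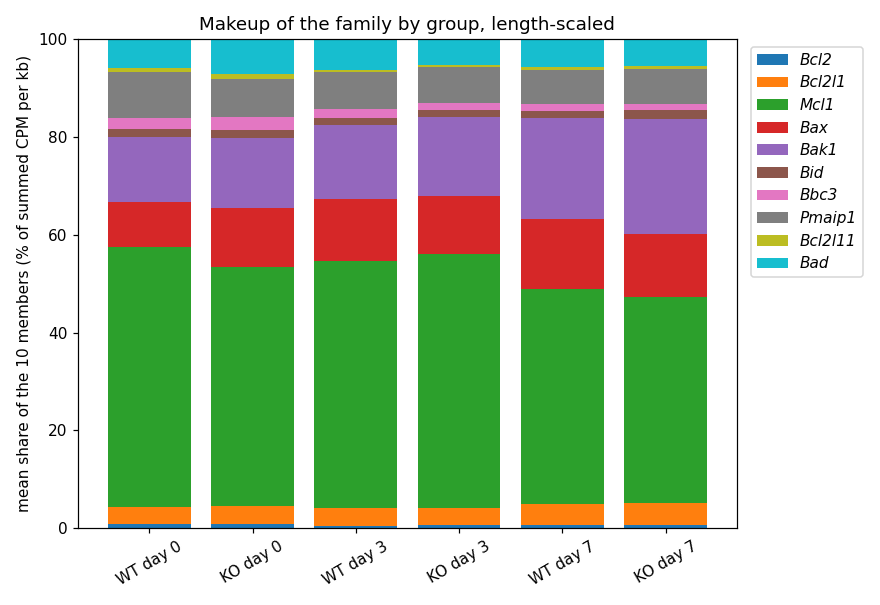
Stacked bars of the mean share of each member in the summed CPM per kb of the 10 members, 1 bar per group. Mcl1 takes 53.1% in WT day 0 and 42.2% in KO day 7, while Bak1 takes 13.3% and 23.5% in the same groups.

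Mcl1 took a smaller mean share of the family, and Bak1 a larger one, on day 7 than on day 3. On the length-scaled level, the share of Mcl1 in the sum of the 10 members was 50.5% ± 3.29 (SD, n = 7) in WT day 3 and 43.9% ± 1.8 (n = 7) in WT day 7. In KO it was 51.8% ± 1.63 (n = 8) on day 3 and 42.2% ± 1.96 (n = 7) on day 7. The share of Bak1 was 15% ± 1.17 and 20.6% ± 2.6 in WT, and 16.2% ± 2.23 and 23.5% ± 4.34 in KO. The KO day 3 shares were 51.3% for Mcl1 and 15.9% for Bak1 when the library labelled d3_KO_345 was left out, and without the library labelled d7_KO_420 the KO day 7 shares were 41.6% and 24.9%. Shares sum to 100%, so a lower share of Mcl1 can accompany higher levels of other members. They are given as a description without a test.

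**Figure D2:**
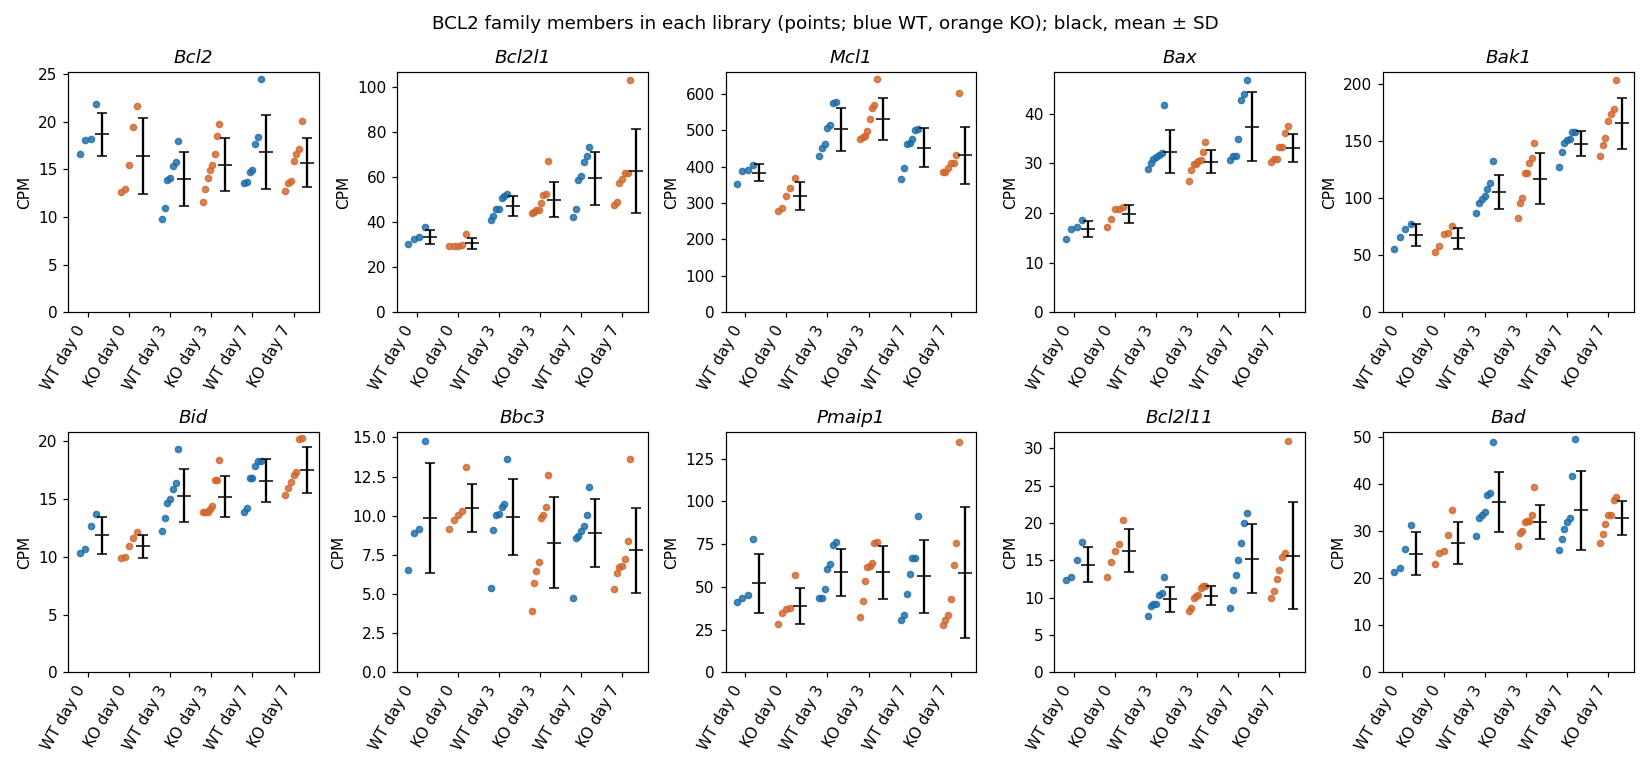
TMM-scaled CPM of each member in each library (points, blue WT and orange KO, sorted within each group) with the group mean ± SD in black, on linear axes that start at 0. Bak1 lies at 52.4 to 77.5 CPM on day 0 and at 127 to 203 CPM on day 7, whereas Bbc3 and Pmaip1 scatter widely within groups.

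The first question was whether the members differed between KO and WT on a given day. None of the 10 was called at an adjusted p under 0.05 by the edgeR quasi-likelihood test on day 0, day 3 or day 7, and DESeq2 also called 0 on each day. An unadjusted p under 0.05 was reached by 2 members on day 0, Mcl1 and Bax, and by 0 on days 3 and 7. The background was near zero as well: 0.0335% of all genes tested were called on day 0, 0.00647% on day 3 and 0.00642% on day 7, so the members' count of 0 does not set them apart. KO and WT libraries overlapped for 10 of 10 members on each day, where 3.68%, 0.0323% and 0.302% of all genes tested did not overlap. In bulk RNA, fewer cells of a type and less RNA per cell cannot be told apart.

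**Figure D3:**
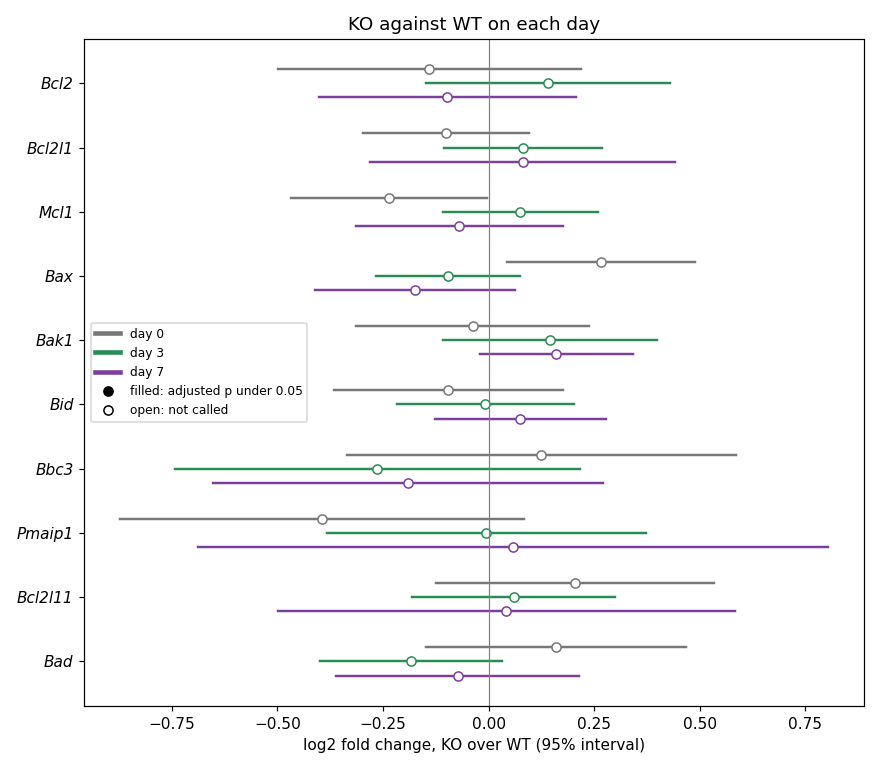
Log2 fold change of KO over WT for each member on day 0 (grey), day 3 (green) and day 7 (purple) with 95% intervals, open where the adjusted p was not under 0.05. All points are open, and the intervals of Mcl1 and Bax on day 0 are the ones that leave out 0.

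Among the guardians, Mcl1 had the lowest unadjusted p between genotypes. On day 0 its level was 351.3, 387.1, 390.3 and 405 CPM in the WT libraries and 277, 287, 318, 341 and 369 CPM in the KO libraries. The lowest WT library lay below the highest KO library, so the groups overlapped. The lowest KO value was that of d0_KO_32. The log2 fold change of KO over WT was -0.24 (SE 0.11, edgeR unadjusted p = 0.0472, adjusted p = 0.473). In the DSS groups, the log2 fold change on day 3 was 0.07 with a 95% interval of -0.11 to 0.26, and on day 7 it was -0.07 with an interval of -0.32 to 0.18. On the log2 scale, in order of day, Bcl2l1 was at -0.10, 0.08 and 0.08 and Bcl2 at -0.14, 0.14 and -0.10, with every interval spanning 0.

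Of the effectors, Bax was the member nearest to a genotype difference at baseline. Its day 0 level was 14.8, 16.7, 17.1 and 18.5 CPM in WT and 17.1, 18.8, 20.8, 20.8 and 21.3 CPM in KO. The KO libraries lay mostly above the WT libraries, with the lowest KO library inside the WT range. The log2 fold change was 0.27 (SE 0.10, edgeR unadjusted p = 0.0233, adjusted p = 0.411). It was of the other sign on day 3 (-0.10, interval -0.27 to 0.07) and on day 7 (-0.17, interval -0.41 to 0.06), neither of which was called. In order of day, Bak1 was at -0.04, 0.15 and 0.16, the last with an interval of -0.02 to 0.34 that allows a KO level up to about that much higher on the log2 scale.

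For the BH3-only members the intervals between genotypes were widest where animals varied most. Pmaip1, a p53 and stress target, spanned 27.9 to 135 CPM in KO day 7, and its log2 fold change there was 0.06 with an interval of -0.69 to 0.80. Bbc3 was at -0.19 (interval -0.65 to 0.27) and Bcl2l11 at 0.04 (interval -0.50 to 0.58) on day 7. Bid, which caspase 8 cleaves to link death receptors to mitochondria, had a narrower interval of -0.13 to 0.28 around 0.08, and Bad, a growth-factor regulated member, one of -0.36 to 0.21 around -0.07. Intervals of this width leave room for moderate differences in Pmaip1, Bbc3 and Bcl2l11 that these libraries could not show. Without the library labelled d3_KO_345, all 10 members remained uncalled on day 3, with log2 fold changes of -0.17 (Bad) to 0.18 (Bcl2). On day 7, leaving out the library labelled d7_KO_420 also left all 10 uncalled, with values from -0.39 (Bbc3) to 0.20 (Bak1).

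The second question was how the members changed between day 3 and day 7 of DSS. Bak1 and Bcl2l11 rose in both genotypes, and Bcl2l1 rose in WT, while no member was called lower with all libraries. In WT 3 of 10 members were called, all higher, against 19.3% of all genes tested called in either direction, 10.6% higher and 8.7% lower. In KO 2 of 10 were called, both higher, against 19.3% in either direction, 10.5% higher and 8.83% lower. Without the library labelled d3_KO_345 the KO count was 1, Bak1, and without the one labelled d7_KO_420 it was 3, Bak1 and Bcl2l11 higher and Mcl1 lower. In these 2 fits 11.9% and 11.3% of all genes tested were called higher, and 10.4% and 11.2% lower. With 10 members, these counts are read as close to the backgrounds. The median log2 fold change of the members was 0.18 in WT and 0.08 in KO, against 0.01 and -0.01 over all genes tested. The ranges of the 2 days overlapped for 10 of 10 members in both genotypes, where 4.59% of genes in WT and 5.11% in KO did not overlap.

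**Figure D4:**
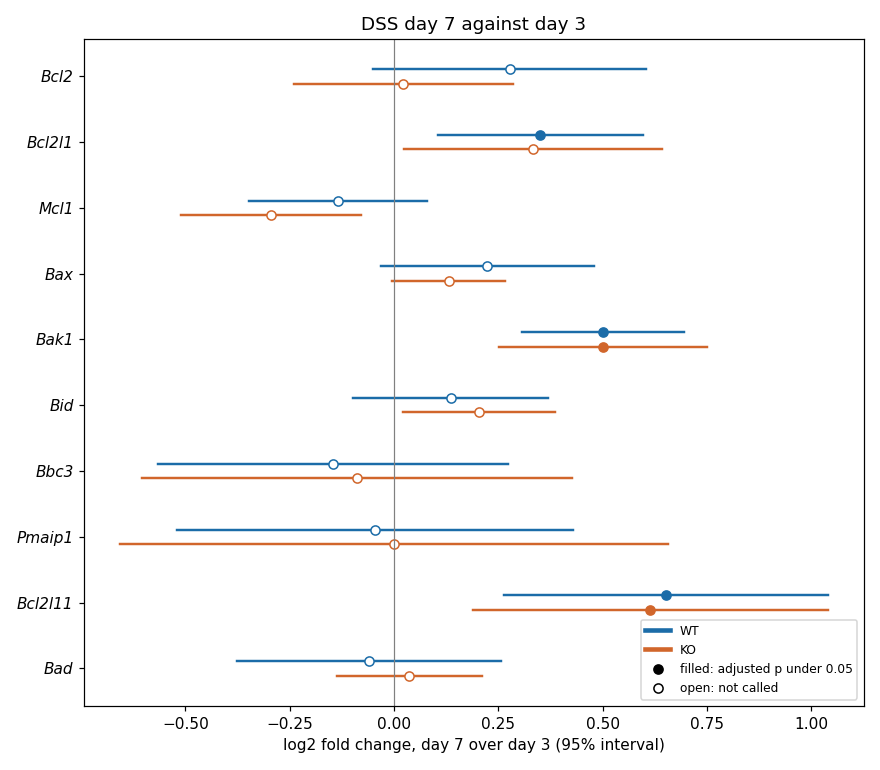
Log2 fold change of day 7 over day 3 for each member in WT (blue) and KO (orange) with 95% intervals, filled where the edgeR adjusted p was under 0.05. Bak1 sits at 0.50 in both genotypes and Bcl2l11 at 0.65 and 0.61, while Mcl1 lies below 0 in both without being called.

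Bak1, 1 of the pore-forming effectors, rose by the same fitted amount in both genotypes. It lies on the minus strand of chromosome 17 at 27019810 to 27029009 (GRCm38 coordinates of the files), and its day 3 level in WT ran from 87.2 through a median of 102 to 133 CPM. On day 7 the WT libraries ran from 127 through 151 to 158 CPM, so only the top of day 3 reached the bottom of day 7. The top WT library of day 3 was d3_WT_381. The log2 fold change was 0.50 (SE 0.09, edgeR adjusted p = 0.00147), or 1.42-fold. In KO the level went from 82.5 to 149 CPM (median 122) on day 3 to 137 to 203 CPM (median 168) on day 7, with a log2 fold change of 0.50 (SE 0.12, adjusted p = 0.00622 by edgeR). The highest KO day 3 library was the one labelled d3_KO_345, and without it the KO range on day 3 ended at 135 CPM, below all day 7 libraries. Without it the log2 fold change was 0.56 (edgeR adjusted p = 0.00238). The call held in all 14 WT fits and all 15 KO fits that each left out 1 library. The window printed above held none of the 5 motifs searched. That window lies inside the counted gene, whose upstream end is 27029009, so the bases before that end were not searched.

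Bcl2l11 encodes BIM, a BH3-only protein that binds all guardians and is known as a mediator of death on cytokine or growth factor withdrawal, including that of leukocytes. It lies on chromosome 2 at 128126038 to 128162547 on the plus strand. Its level in WT ran from 7.59 through a median of 9.21 to 12.8 CPM on day 3 and from 8.68 through 15.1 to 21.3 CPM on day 7. Day 7 was thus higher in its middle and much wider, and its lowest library lay inside the day 3 range. The log2 fold change was 0.65 (SE 0.18, edgeR adjusted p = 0.0203), or 1.57-fold. In KO the level ran from 8.28 through 10.3 to 11.6 CPM on day 3 and from 9.97 through 13.7 to 31 CPM on day 7, a change of 0.61 on the log2 scale (SE 0.20, edgeR adjusted p = 0.0415). The highest value by far, 31 CPM, came from the library labelled d7_KO_420, whereas the other 6 KO day 7 libraries held 9.97 to 16 CPM. Without that library the log2 fold change was 0.35 (adjusted p = 0.0463), and without the library labelled d3_KO_345 it was 0.57 (adjusted p = 0.0628). The WT call held in 14 of 14 fits that left out 1 library and the KO call in 4 of 15.

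**Figure D5:**
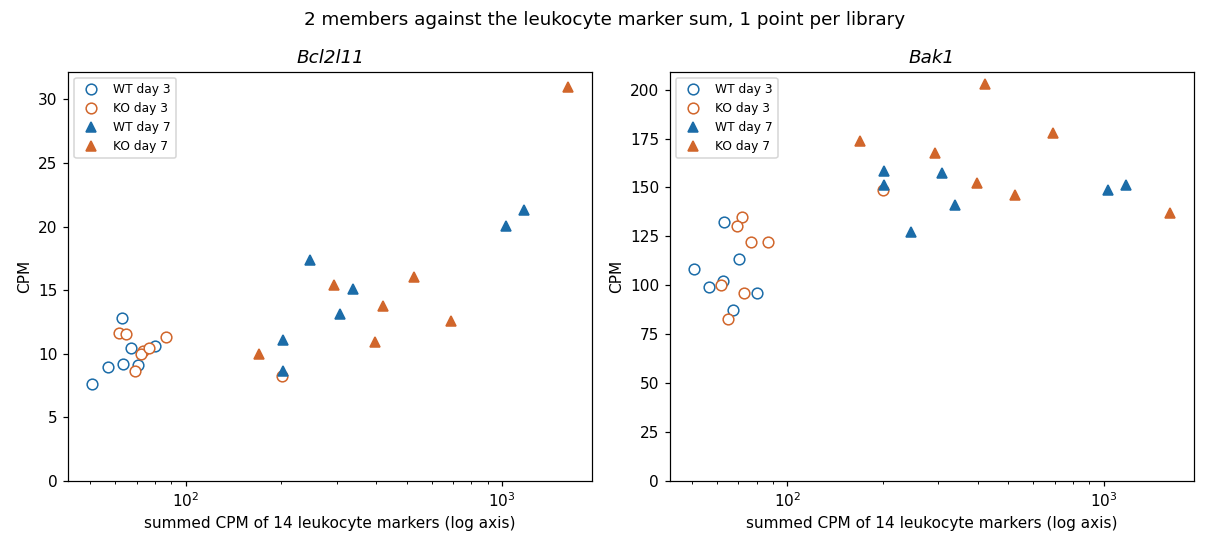
CPM of Bcl2l11 (left) and Bak1 (right) against the summed CPM of 14 leukocyte markers (log axis), 1 point per library, open circles for day 3 and filled triangles for day 7. Bcl2l11 is highest, at 20 to 31 CPM, in the 3 libraries whose leukocyte sums are 1031 CPM or more, while Bak1 shows no such order among the day 7 libraries.

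Leukocyte markers moved with the same contrast and are given beside it. From day 3 to day 7, 11 of 14 were called higher in WT and 14 of 14 in KO, with median log2 fold changes of 2.78 and 2.13. The leukocyte sums were 1617 CPM in the library labelled d7_KO_420, 1176 CPM in d7_WT_419 and 1031 CPM in d7_WT_356, and these libraries held 31, 21.3 and 20 CPM of Bcl2l11, its 3 highest values on day 7. Within the 14 day 7 libraries, with genotype in the model, the slope of Bcl2l11 on the leukocyte score (mean log2 CPM of the markers) was 0.43 per unit (SE 0.14, unadjusted p = 0.00825, edgeR adjusted p = 0.165). That of Bak1 was -0.0004 with an interval of -0.13 to 0.13. For Bcl2 the slope was 0.19 (unadjusted p = 0.0349, edgeR adjusted p = 0.386), and for Bcl2l1 it was 0.10 (interval -0.15 to 0.35). This slope was examined after the values had been seen. It called 0 of 10 members by edgeR (2 at an unadjusted p under 0.05) and 0 by DESeq2, against 3.36% of all genes tested called, 3.27% with a positive and 0.0834% with a negative slope. With the leukocyte score as a covariate of the day comparison no member was called in either genotype, and Bak1 in WT was at 0.61 (adjusted p = 0.168) and Bcl2l11 in WT at -0.56 (adjusted p = 0.336). The score did not overlap between the days in WT, at -0.44 to 0.56 on day 3 and 2.41 to 4.78 on day 7, so in that fit day and score are hard to tell apart, and at most 1 of all genes tested was called in either genotype. The part of leukocyte RNA in the difference of Bcl2l11 between days was not tested further.

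Bcl2l1, which encodes the guardian BCL-XL, was called in WT and not in KO. It lies on the minus strand of chromosome 2 at 152780668 to 152831728. WT libraries ran from 41 through a median of 45.9 to 52.4 CPM on day 3 and from 42.1 through 60.6 to 73.3 CPM on day 7. The day 7 range covered nearly all of the day 3 range and extended above it. The log2 fold change was 0.35 (SE 0.12, edgeR adjusted p = 0.0444) in WT. In KO, with 44.1 to 67.1 CPM (median 47) on day 3 and 47.8 to 103 CPM (median 59.1) on day 7, it was 0.33 (SE 0.15, adjusted p = 0.128 by edgeR). The interaction of genotype with day was 0.0003 (interval -0.40 to 0.40, adjusted p = 0.9999), so no difference between genotypes was found. The extremes in KO were the library labelled d3_KO_345 at 67.1 CPM and the one labelled d7_KO_420 at 103 CPM, and the log2 fold change was 0.41 without the first and 0.17 without the second. The WT call held in 4 of 14 fits that each left out 1 library, and it was lost with DESeq2 size factors (adjusted p = 0.0521) and without the count filter (adjusted p = 0.0593).

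Mcl1, the guardian with a short-lived protein, had negative fitted values in both genotypes and was called in neither. It lies on chromosome 3 at 95658788 to 95663176. WT libraries held 429 to 578 CPM (median 506) on day 3 and 365 to 503 CPM (median 464) on day 7, a log2 fold change of -0.13 (adjusted p = 0.391). KO libraries held 476 to 642 CPM (median 514) and 384.7 to 602 CPM (median 409), a change of -0.30 on the log2 scale (SE 0.10, edgeR adjusted p = 0.0524). In KO, 6 of 7 day 7 libraries (384.7 to 430.5 CPM) lay below all day 3 libraries and the library labelled d7_KO_420 lay at 602 CPM. Without that library the value was -0.40 (edgeR adjusted p = 0.00101), and without the library labelled d3_KO_345 it was -0.25 (edgeR adjusted p = 0.0832). DESeq2 called it with all libraries (-0.29, adjusted p = 0.0346). Since both libraries were singled out after their values were seen, the uncalled value stands as the result.

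The other members were not called between days 3 and 7 in either genotype. Bcl2 (chromosome 1, 106538178 to 106714274, minus strand) was at 0.28 in WT and 0.02 in KO. Bax (chromosome 7, 45461695 to 45466898, minus strand), the effector that moves from the cytosol to mitochondria, was at 0.22 in WT (adjusted p = 0.214) and 0.13 in KO (adjusted p = 0.179). Its WT libraries on day 7 fell between 30.7 and 46.9 CPM, and those of KO between 30.3 and 37.6 CPM. Bid (chromosome 6, 120891930 to 120916853, minus strand) was at 0.14 and 0.20, Bad (chromosome 19, 6941861 to 6951898, plus strand) at -0.06 and 0.04. Bbc3 (chromosome 7, 16309616 to 16318205, plus strand) was at -0.15 and -0.09, and Pmaip1 (chromosome 18, 66458604 to 66465550, plus strand) at -0.05 and -0.0005. The members known as p53 targets, Bbc3, Pmaip1 and Bax, thus had no call in this contrast. Bid shares bases with Bcl2l13, Bad with Gpr137 and Bak1 with Ggnbp1 on the opposite strand, and strand was ignored in counting. The highest levels of these neighbours were 73.4, 33.5 and 4.1 CPM, and how overlapping reads were assigned cannot be seen in the counts.

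The change from day 3 to day 7 was compared between genotypes in 1 model. The interaction called 0 of 10 members (0 at an unadjusted p under 0.05, and 0 by DESeq2), and 0% of all genes tested were called. It also called 0 without the library labelled d3_KO_345 and 0 without the one labelled d7_KO_420. The fitted interactions ran from -0.24 for Bcl2 to 0.12 for Bad on the log2 scale. For Bak1 it was 0.02 with an interval of -0.29 to 0.33, and for Bcl2l11 -0.02 with an interval of -0.60 to 0.56. The interval of Bcl2l11 allows a difference about as large as the rise itself.

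The DSS days were also set against untreated animals, with the limit that day 0 and the library prefix cannot be told apart. The shares of mitochondrial ribosomal and histone counts also differed, as given above, and the ages of the single day 0 animals are not given. Differences from day 0 below cannot be told apart from these. The comparisons within a genotype share their day 0 libraries, so they are given side by side and not counted as repeats of each other. Bcl2l1, Bax and Bak1 were higher on both DSS days in both genotypes, Bid was higher in 3 of the 4 comparisons, and Bcl2l11 was lower on day 3 in both genotypes.

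In WT day 3 against day 0, 6 of 10 members were called, 4 higher and 2 lower, against a background of 46% of all genes tested, 20.4% higher and 25.6% lower. For KO day 3 the same count, 6 of 10, comprised 5 higher and 1 lower, with a background of 46.3%, 22.6% higher and 23.7% lower. For WT day 7 the count was 4, all higher, with 56.9% of genes called, 27.8% higher and 29.2% lower. In KO day 7, 6 were called, 5 higher and 1 lower, with 54.6% called, 27.3% higher and 27.3% lower. Counts of 4 to 6 of 10 lie near these backgrounds. Without the library labelled d3_KO_345 the KO day 3 count was again 6, with Bak1 at 0.67, Bcl2l1 at 0.51, Mcl1 at 0.56, Bax at 0.52, Bid at 0.37 and Bcl2l11 at -0.76. Groups did not overlap for 4, 6, 4 and 5 members in the same order, where 33%, 27.6%, 39.9% and 35.8% of all genes tested did not overlap.

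Both effectors were higher on each DSS day than on day 0. Bak1 was at 55.2, 66.1, 72.7 and 77.5 CPM in WT day 0 and at 52.4, 57.7, 68.9, 69.1 and 75.5 CPM in KO day 0, below every DSS library of the same genotype. The log2 fold change was 0.54 on day 3 and 1.05 on day 7 in WT, and 0.74 and 1.24 in KO, with edgeR adjusted p-values of 0.00383, 3.63e-06, 0.000489 and 8.64e-07. Bax rose by 0.86 on day 3 and 1.08 on day 7 in WT and by 0.50 and 0.64 in KO on the log2 scale, from a day 0 range of 14.8 to 21.3 CPM over both genotypes to 26.6 to 46.9 CPM on the DSS days. The difference between genotypes in these changes from day 0 was not tested. Leukocyte markers moved with the day 7 comparisons here too: 12 of 14 were called higher in WT and 14 of 14 in KO. On day 3, 3 of 11 tested were called higher and 1 lower in WT, and 4 of 10 higher in KO. With the leukocyte score as a covariate, 0 of 10 members were called for KO day 7 against day 0. Bak1 was then at 1.23 (edgeR adjusted p = 0.215), Bax at 0.37 (adjusted p = 0.684) and Mcl1 at -0.46 (adjusted p = 0.716). The share of all genes called in that fit is not given here, so the count is not read as a result about the members. In WT, Bax (1.66, adjusted p = 0.00957 by edgeR) and Bak1 (0.91, adjusted p = 0.048) were called with the covariate. The score did not overlap between these days in WT, at -0.52 to 0.31 on day 0 and 2.41 to 4.78 on day 7. In KO it was -0.76 to 0.45 and 2.66 to 4.28. Day and score are thus hard to tell apart in these fits, and neither the calls kept nor those lost are read further. The part of leukocyte RNA in the differences from day 0 was not tested further.

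Of the guardians, Bcl2l1 rose from 30.4 to 37.6 CPM in WT day 0 and 29.2 to 34.9 CPM in KO day 0 to at least 41 CPM in every DSS library. Its log2 fold changes were 0.40 and 0.76 in WT and 0.59 and 0.93 in KO on days 3 and 7. Mcl1 was called in KO on day 3 (0.61, edgeR adjusted p = 0.000154) and on day 7 (0.32, edgeR adjusted p = 0.0422). The KO day 7 call of Mcl1 held in 6 of 12 fits that each left out 1 library. It was 0.22 without the library labelled d7_KO_420 (edgeR adjusted p = 0.0334), and its largest adjusted p, 0.0951, came without the KO day 0 library of animal 53. In WT, Mcl1 was at 0.29 on day 3 with an edgeR adjusted p of 0.0501. Bcl2 was lower in WT day 3 (-0.51, edgeR adjusted p = 0.0142), from 16.6, 18, 18.2 and 21.8 CPM on day 0 to 9.82 to 18 CPM, a call lost without the WT day 0 library of animal 41 (adjusted p = 0.0762). It was not called in the other 3 comparisons.

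Among BH3-only members, Bcl2l11 fell from 12.4, 12.8, 15.1 and 17.5 CPM in WT day 0 to 7.59 to 12.8 CPM in WT day 3. In KO it fell from 12.7, 14.8, 16.3, 17.2 and 20.4 CPM to 8.28 to 11.6 CPM. The KO groups did not overlap, and the WT groups met at their edge. The log2 fold changes were -0.66 in WT (SE 0.14, edgeR adjusted p = 0.00223) and -0.80 in KO (SE 0.12, edgeR adjusted p = 5.23e-05). By day 7 Bcl2l11 was at 0.01 in WT and -0.17 in KO against day 0, neither called with all libraries, and without the library labelled d7_KO_420 the KO value was -0.44 (edgeR adjusted p = 0.0193). Bid rose in KO by 0.36 on day 3 and 0.57 on day 7 and in WT by 0.41 on day 7, the last not called without the WT day 0 library of animal 43 (adjusted p = 0.0561). Bad rose in WT day 3 (0.43, edgeR adjusted p = 0.0301), a call that held in 6 of 11 fits that each left out 1 library, and was not called in the other 3 comparisons. Bbc3 was lower in KO day 7 by 0.54 on the log2 scale (edgeR adjusted p = 0.0436), a call that held in 1 of 12 fits that each left out 1 library (that without the library labelled d7_KO_420, at -0.74), and Pmaip1 was called in none of the 4.

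Other genes of the intrinsic and extrinsic pathways were examined from fixed lists for day 7 against day 3, where the background over all genes tested was 10.6% called higher and 8.7% lower in WT and 10.5% and 8.83% in KO. Of 15 other BCL2 family genes, 11 were tested in WT and 12 in KO, and 3 and 5 were called higher with 0 lower, with median log2 fold changes of 0.01 and 0.13 against 0.01 and -0.01 over all genes tested. Those that rose were the leukocyte-expressed guardian paralogs Bcl2a1d (3.19 in WT, 2.44 in KO), Bcl2a1b (2.71 and 2.37) and, in KO, Bcl2a1a (3.06), the mitophagy gene Bnip3 (1.26 and 1.03) and, in KO, the BH3-only gene Bmf (0.85). The Bcl2a1 paralogs are near-identical, so reads may be split or dropped among them and their single values are uncertain. They did not pass the count filter between genotypes on day 3, and so entered here through their day 7 level. Higher was thus the direction open to them, and the counts that hold them are not read against the background. Bcl2l2, the guardian BCL-W, was at -0.05 in both genotypes. The KO count was again 5 higher and 0 lower once the library labelled d3_KO_345 was left out. Leaving out the one labelled d7_KO_420 instead gave 5 higher and 2 lower, the latter being Bcl2l14 and Bok. The 2 lower are 16.7%, against 11.2% of all genes tested in that fit.

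Downstream of the mitochondria, 2 of 15 genes of the apoptosome, caspases and their inhibitors were called higher in each genotype and 0 lower, with medians of 0.20 and 0.14. A count of 2 of 15 lies near the background given above. Apaf1, the scaffold that activates caspase 9, rose in both (0.75 in WT and 0.47 in KO). Casp8, the initiator downstream of death receptors, rose in WT (0.50), and Casp6, an executioner caspase, rose in KO (0.27). When the library labelled d3_KO_345 was left out, 4 were called higher in KO (26.7%, against 11.9% of all genes tested), with Casp8 and Cflar added. Without the one labelled d7_KO_420, Birc3 was called lower (6.67% of the list, against 11.2% of all genes tested). Of 16 p53 targets outside the family, 0 were called higher and 2 lower in WT, and 1 higher and 2 lower in KO, with medians of -0.15 and -0.11. Btg2 (-0.92 and -1.07) and Plk2 (-0.84 and -1.29) fell in both genotypes, and the death receptor gene Fas rose in KO (0.76), while Cdkn1a was at 0.03 and 0.07. These counts too lie near the background. In KO, 4 were called lower when the library labelled d7_KO_420 was left out, with Gdf15 and Tnfrsf10b added. That is 25%, against 11.2% of all genes tested in the same fit. A further list held Vdac1, Vdac2, Vdac3, Hk1, Hk2 and Ppif. Of these 6 genes, Hk2 (0.92) and Vdac2 (0.36), whose protein binds BAK, rose in WT. In KO 0 were called, and the medians were 0.08 in WT and -0.05 in KO. In KO, Ppif was called lower without either of the labelled libraries d3_KO_345 and d7_KO_420, each left out alone. This is 16.7% of the list, against 10.4% and 11.2% of all genes tested called lower in the 2 fits. The list genes added by leaving out a library were named after their values were seen. Between genotypes, the one call over these 4 lists on any day was Hk2 itself on day 0 (-2.20, edgeR adjusted p = 0.0331).

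Members were also compared over the 29 libraries of days 3 and 7, after the mean of each group was subtracted from the log2 CPM. Differences between days and genotypes are thus left out. The values are a description, since libraries of a group also differ in leukocyte content. Of the 45 pairs, Bcl2l1 and Mcl1 had the highest Pearson r of these deviations (0.742, Spearman rho 0.705), which was 0.571 without the 2 libraries farthest from the median. Bax and Bad followed (0.728, and 0.614 without 2 libraries). Bcl2 and Bad had the lowest r (-0.641), next to Bak1 and Bbc3 (-0.62) and Bcl2 and Bak1 (-0.616). The effectors Bax and Bak1 were nearly unrelated (r 0.063).

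Among 7647 genes with a mean log2 CPM of at least 4, those most like each member were found over the same 29 libraries. The measure was again the Pearson r of deviations from the group means. Bak1 was most like Dbnl (r 0.913) and Psmd2 (0.899), and Bcl2l1 like Pde9a (0.923) and Efhd2 (0.915). The values of Bcl2l1 fell to 0.867 and 0.854 without the libraries labelled d7_KO_420 and d3_KO_345. Mcl1 was nearest to Cdc42se1 (0.876) and Plscr1 (0.867), Bcl2l11 to Atg2a (0.846) and Grina (0.844), and the values for Bcl2l11 without 2 libraries were 0.698 and 0.746. Bax was nearest to Tstd1 (0.918) and the ribosomal protein gene Rpl18 (0.914), Bad to Ict1 (0.932) and 1110001J03Rik (0.916), and Pmaip1 to Pnrc1 (0.917) and Pdp1 (0.894). Bbc3 was nearest to Tob1 (0.864) and Sdc4 (0.858), and Bcl2 to Chd7 (0.837) and Fnbp1 (0.817). Bid had the lowest best match, Acot8 (0.707), with Serhl at 0.702. These correlations describe shared rises and falls across libraries within the groups and carry no test.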

How the data were processed

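RNA of isolated intestinal epithelial cells was sequenced in 38 mouse libraries. The deposited values are raw counts per gene; per the file headers the authors made them with featureCounts 1.6.2 on paired reads with strand ignored, and 1 command was used in all 76 files. The submitters' processing notes list Trim Galore, STAR, featureCounts 1.5.2 and build GRCm38, and per the labels a stranded mRNA kit and 50-base paired reads (23 M on average) were used. The 2 lanes of each library were summed (lowest lane correlation 0.989).

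Gene tests used edgeR 4.0.16 (quasi-likelihood, TMM scaling, filter on expression by group, compared groups alone) under R 4.3.3. P-values were Benjamini-Hochberg adjusted over all genes tested, and an adjusted p under 0.05 was called. SE was the log2 change divided by the root of its F value, and intervals are 95%. CPM are TMM-scaled over all libraries. The procedure was tested on counts simulated for KO against WT on day 7 and for day 7 against day 3 in WT. Of genes changed by 1 on the log2 scale, 69% and 63.6% were called. Of those changed by 2, 94% and 94.9% were called. Calls among unchanged genes numbered 5 and 10. Changes smaller than 1 were not simulated. Libraries were grouped by genotype and day as labelled, and each title gives its own animal number, so groups share none. P-values measure the spread between these animals.

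Members and lists were chosen with earlier results of these data known. All 10 members are named. From each other list up to 4 called genes per direction are named, and for likeness the 2 genes with the highest r. Alternatives were DESeq2 1.42.0 (size factors and Wald test), no count filter, a fit of all 38 libraries, the leukocyte score as a covariate and leaving out each library; leaving out the doubted KO libraries from the other lists and the shares was chosen after seeing the data. Floors of 3 counts cover counting error only. The RefSeq promoter table (GRCm38.p6) gave windows for 9 members.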

Additional observations from a re-analysis of the deposited data

Results flagged for a closer look

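In 60 groups of libraries (10 members in 6 groups), 9 had 1 library standing apart from the others by more than Dixon's 95% limit. Independent normal values pass that limit in about 1 in 20. The members share their libraries, and all 9 were at the high end of unlogged CPM, so the count is not read as an excess over chance. Of these, 4 belonged to the library labelled d7_KO_420: Bcl2l1 at 102.9 CPM, Mcl1 at 602 CPM, Bbc3 at 13.64 CPM and Bcl2l11 at 31 CPM, each the highest of KO day 7. The same library was the highest of its group for 6 of 10 members and had the highest leukocyte sum (1617 CPM) and erythroid sum (440.5 CPM) of day 7, and the lowest Bak1 level of KO day 7 (137 CPM). The library labelled d3_KO_345 was the highest of KO day 3 for Bcl2l1 at 67.07 CPM. On day 0, d0_KO_32 stood apart for Bcl2l1 at 34.89 CPM, d0_KO_60 for Bbc3 at 13.1 CPM, and d0_WT_46 for Pmaip1 at 77.91 CPM. In WT day 3, d3_WT_381 stood apart for Bax at 41.83 CPM.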

How the results depend on the processing

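Of 2100 single-gene values recomputed under the alternatives, 2013 kept their direction and their side of the threshold or were uncalled throughout, 60 lost a call, 25 gained one and 2 changed sign from a called value; 144 uncalled values changed sign without a call on either side. Both called sign changes came with the leukocyte score as covariate: Bcl2l11 on day 7 against day 3 in WT at -0.56 and Mcl1 on day 7 against day 0 in KO at -0.46 (adjusted p = 0.336 and 0.716). With that covariate the members called fell to 0 for day 7 against day 3 in WT (3 without it), for the same days in KO (2) and for day 7 against day 0 in KO (6). The cause was not tested. The score does not overlap between the days compared, so these counts are not read as a result about the members. Leaving out 1 library at a time gave 1 to 3 members called for day 7 against day 3 in KO and 2 to 3 in WT, 4 to 7 and 6 to 7 for day 3 against day 0 in WT and KO, and 3 to 5 and 4 to 7 for day 7 against day 0. KO against WT gave 0 on each day under every alternative, as did the interaction. Bax in WT (0.24, adjusted p = 0.0499) and Bcl2l1 in KO (0.37, adjusted p = 0.036) were called on day 7 against day 3 in the fit of all 38 libraries. DESeq2 called 177 genes of all tested between genotypes on day 0 and 83 on day 7, where edgeR called 5 and 1. The groups share no animal numbers, so animals could not be paired between groups. Litter and cage did not enter the tests, although WT were littermates and the genotypes of days 3 and 7 were housed together. The lowest total counts were in day 0 libraries, which limits the day 0 comparisons.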
